A study of Homo sapiens with 27 samples.

Results

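The respiratory chain and the ATP synthase are built from proteins of both genomes of the cell, and the messenger RNAs of the nuclear-encoded and the mitochondrially encoded subunits were compared here. Nuclear members were chosen by symbol: NDUFA, NDUFB, NDUFC, NDUFS and NDUFV genes with a number, SDHA to SDHD, and symbols starting with UQCR, with COX4 to COX8 or with ATP5. Mitochondrial members were the MT-ND, MT-CO, MT-CYB and MT-ATP genes. Of 20987 genes in the table, 98 matched after 2 pseudogenes were left out, and 91 were kept because their normalised count was at least 10 in at least 3 libraries: 78 nuclear and all 13 mitochondrial genes.

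The study exposed 3 human prostate cancer cell lines to IPI-9119. The compound blocks FASN, the fatty acid synthase that makes palmitate. LNCaP is described in the labels as androgen sensitive, and 22Rv1 and LNCaP95 as castration resistant. Each line received the solvent DMSO, 100 nM or 500 nM of the compound for 6 days, and the medium was not replaced in that time. There were 3 libraries in each of the 9 groups (27 in all). Nothing in the labels says that replicates came from different cultures, so p-values reflect library-to-library spread, which may be technical. Cells and their conditioned medium were collected together and pelleted, per the labels' protocols, and poly(A) RNA was sequenced.

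Complexes I to IV pass electrons from NADH and succinate to oxygen. All but complex II pump protons across the inner mitochondrial membrane as they do so, and complex V, the ATP synthase, uses the proton gradient to make ATP. Complex II is encoded wholly in the nucleus, whereas complexes I, III, IV and V mix nuclear subunits with core membrane subunits made inside the mitochondrion. Mitochondrial genes are transcribed as long joint precursors from both strands of a separate circular genome, and MT-ND6 is the protein gene of the light-strand transcript. Nuclear subunit genes have promoters of their own, many with sites for NRF1 and for ETS-family factors.

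The libraries held 14757874 to 26578881 reads in genes. In 22Rv1 DMSO replicate 3, 18444 genes were above 0, against at most 15962 in any other library, and the cause was not tested. That library enters every 22Rv1 comparison with DMSO. The prostate luminal markers were all expressed in each line (9 of 9 at 10 or more in at least 3 libraries), and the summed basal markers reached at most 19.6. Summed neuroendocrine markers spanned 237 to 568 in LNCaP and 778 to 1281 in LNCaP95, and they were highest in 22Rv1 (4237 to 5026). The part of other cell types in the results was not tested, and in these bulk samples fewer cells of a type and less RNA per cell cannot be told apart.

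The mitochondrial share of the normalised counts spanned a wider range over the 27 libraries than the nuclear share. The nuclear members together made up 1.49% to 2.05% of a library, and the 13 mitochondrial genes 1.69% to 7.56%. Within groups, the median coefficient of variation over nuclear members lay between 4.17% (LNCaP 500 nM) and 19.9% (22Rv1 100 nM). Over mitochondrial members it lay between 9.37% (22Rv1 100 nM) and 62.0% (LNCaP95 500 nM).

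Nuclear shares were lower in treated LNCaP95 than in its DMSO libraries. The LNCaP95 DMSO libraries had 1.92%, 2.04% and 1.96%, the 100 nM libraries 1.54%, 1.61% and 1.62%, and the 500 nM libraries 1.49%, 1.67% and 1.70%. No treated LNCaP95 library reached the lowest DMSO library. In LNCaP the share was 1.73% ± 0.03 with DMSO, 1.94% ± 0.10 at 100 nM and 1.77% ± 0.02 at 500 nM (SD, n = 3), and the 100 nM libraries lay above both other groups. In 22Rv1 it was 1.88% ± 0.13, 1.83% ± 0.20 and 1.78% ± 0.06 (SD, n = 3), with overlapping groups.

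Mitochondrial shares had higher means with the compound in all 3 lines, but the groups separated in 22Rv1 at 500 nM and overlapped in LNCaP and LNCaP95. In 22Rv1 the DMSO libraries had 2.50%, 2.81% and 3.12% and the 500 nM libraries 3.38%, 3.41% and 4.11%. In LNCaP the DMSO values of 2.86%, 1.69% and 2.31% overlapped those at 500 nM, 2.19%, 4.45% and 3.53%. In LNCaP95 the DMSO values were 3.19%, 2.28% and 1.78%, those at 100 nM 3.75%, 7.56% and 2.39%, and those at 500 nM 3.62%, 6.92% and 1.99%. Replicate 2 stood far above replicates 1 and 3 at both doses in LNCaP95, and replicate 3 was the lowest in each LNCaP95 group.

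**Figure D1:**
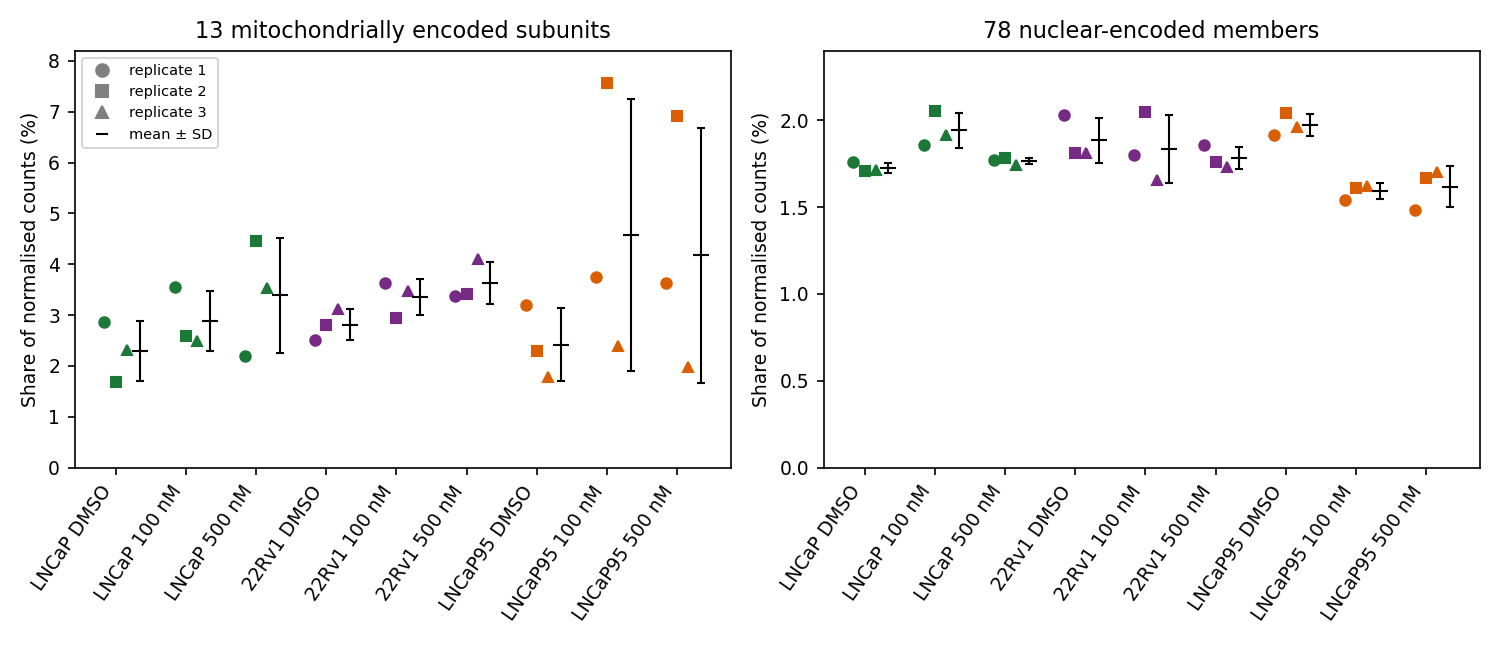
Share of each library's normalised counts (%) in the 13 mitochondrially encoded genes (left) and in the 78 nuclear-encoded members (right), by group; points are libraries, symbols give the replicate number, and bars are the mean ± SD (n = 3). LNCaP95 replicate 2 reached 7.56% and 6.92% mitochondrial share at 100 and 500 nM, and all treated LNCaP95 libraries lay below 1.92% nuclear share.

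Each gene was then tested with limma on log2(normalised count + 1), with Benjamini-Hochberg adjustment over all genes tested, so a fold change is on that scale and understates the change of low genes. A gene is called where its adjusted p was under 0.05. Both doses of a line were compared with the same 3 DMSO libraries, so the results of the doses are not independent.

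LNCaP95 was the line in which many nuclear members were lower. At 500 nM 33 of 78 (42.3%) fell and 4 rose, where 24.1% of all genes tested fell and 28.2% rose (52.3% in either direction). Of the 4 that rose at each dose, COX7B2 passed the filter on low values only through the treated libraries, where it was high. Groups did not overlap for 37 of 78 members at 500 nM and for 41 at 100 nM, against 58.9% and 60.5% of all genes. At 100 nM the counts were again 33 lower and 4 higher, against 24.1% and 28.2% of all genes. The median log2 fold change of the nuclear members was -0.16 at 500 nM and -0.18 at 100 nM, beside 0.03 for all genes at each dose. With the replicate number as a block, 40 members fell and 6 rose at 500 nM, and 42 fell and 4 rose at 100 nM. The share of all genes called with the block is not given.

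**Figure D2:**
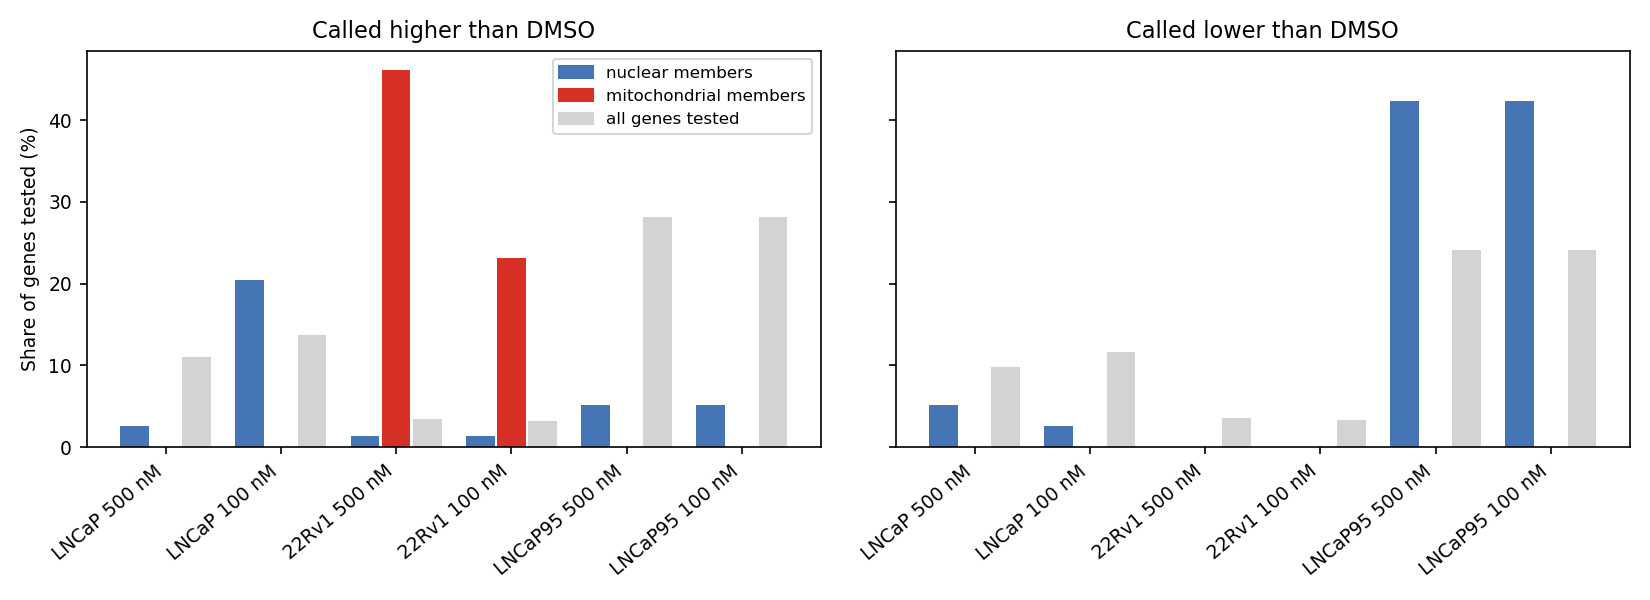
Share of genes tested (%) called higher (left) or lower (right) than DMSO by limma at an adjusted p under 0.05, for nuclear members, mitochondrial members and all genes tested, in the 6 comparisons with DMSO. Nuclear members were called lower in 42.3% of cases in LNCaP95 at both doses, and mitochondrial members were called higher in 22Rv1.

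Complex II and complex V held the lowest medians in LNCaP95 at 500 nM. All but SDHC of the 4 complex II genes fell (3 of 4, median -0.49), as did 10 of 15 complex V genes (median -0.39), 4 of 8 complex III genes and 14 of 36 nuclear complex I genes. Of 13 complex IV genes 1 fell and 2 rose, COX7A2L and COX7B2. Of all genes tested in this comparison, 24.1% fell and 28.2% rose. COX7B2 passed the filter only through its treated libraries, so its rise is a description with no test.

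SDHB, the iron-sulphur subunit of succinate dehydrogenase (complex II), had 2442, 3091 and 2480 normalised counts in the LNCaP95 DMSO libraries. It had 1518, 1664 and 1571 at 100 nM and 1578, 1778 and 1683 at 500 nM, so that every treated library lay below every DMSO library. SDHB fell by 0.75 at 100 nM and by 0.66 at 500 nM on the log2 scale (SE 0.09 at each; limma adjusted p 1.97e-05 and 5.15e-05). SDHA, the flavoprotein that oxidises succinate, fell by 0.50 (SE 0.09, adjusted p 0.000388), and SDHD, a membrane anchor, fell by 0.48 (SE 0.09, adjusted p 0.000739) at 500 nM. SDHC, the other anchor, had a log2 difference of -0.09 (adjusted p 0.358).

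ATP5G3 had the largest fall of the set in LNCaP95. It is one of a trio of genes, with ATP5G1 and ATP5G2, that encode the same mature c subunit of the ATP synthase rotor. Its DMSO libraries had 8361, 9461 and 8126 normalised counts, the 100 nM libraries 4373, 5283 and 4663, and the 500 nM libraries 4328, 5324 and 5016. It fell by 0.86 and 0.83 on the log2 scale at 100 and 500 nM (SE 0.10, limma adjusted p 1.09e-05 and 1.48e-05), with no overlap between groups. ATP5G1 fell by 0.33 and 0.40 (adjusted p 0.0102 and 0.00317), while ATP5G2 differed by -0.09 at each dose (adjusted p 0.341 and 0.345).

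Other ATP synthase subunits that fell in LNCaP95 lie in the catalytic head, the shaft and the stalk. ATP5B, the catalytic beta subunit, had 52509, 53585 and 54401 normalised counts with DMSO and 32330, 37888 and 39764 at 500 nM, and it fell by 0.55 (SE 0.11, limma adjusted p 0.000949). ATP5O, the stalk subunit that binds the head, fell by 0.60 (SE 0.10, adjusted p 0.000183). ATP5C1, the central shaft, fell by 0.41 (SE 0.08, adjusted p 0.000935). For these genes too all 500 nM libraries were below all DMSO libraries.

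In complex I the smallest adjusted p was that of NDUFA9, an accessory subunit, with 2720, 3084 and 2943 normalised counts with DMSO and 1940, 2116 and 2084 at 500 nM. It fell by 0.51 (SE 0.07, limma adjusted p 5.82e-05). The core subunits NDUFS1, which carries iron-sulphur clusters, and NDUFS3 fell by 0.38 and 0.43. In complex III the smallest adjusted p was that of UQCRC1, a core protein, with 6888, 7236 and 7206 normalised counts with DMSO and 4612, 5320 and 5631 at 500 nM. UQCRC1 fell by 0.46 (SE 0.09, adjusted p 0.000611), and UQCRFS1, the Rieske iron-sulphur protein, fell by 0.47 (SE 0.09, adjusted p 0.00094).

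The 4 members that rose in LNCaP95 at 500 nM were ATP5S, COX7A2L, NDUFA7 and COX7B2, the last described below without a test. ATP5S, coupling factor B, matched the symbol rule but is no subunit of the synthase; it had 148, 120 and 136 normalised counts with DMSO and 224, 234 and 248 at 500 nM, a rise of 0.81 (SE 0.11, limma adjusted p 6.36e-05). COX7A2L, a COX7A relative that joins complexes III and IV in supercomplexes, had 2122, 1812 and 1871 with DMSO and 2820, 2888 and 2812 at 500 nM. It rose by 0.56 (SE 0.07, adjusted p 3.17e-05), and the treated libraries were all above the DMSO libraries. NDUFA7, an accessory subunit of complex I, rose by 0.25 (SE 0.08, adjusted p 0.0166), but its call was lost without DMSO replicate 3 (log2 fold change 0.23) and without 500 nM replicate 2 (0.19).

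**Figure D3:**
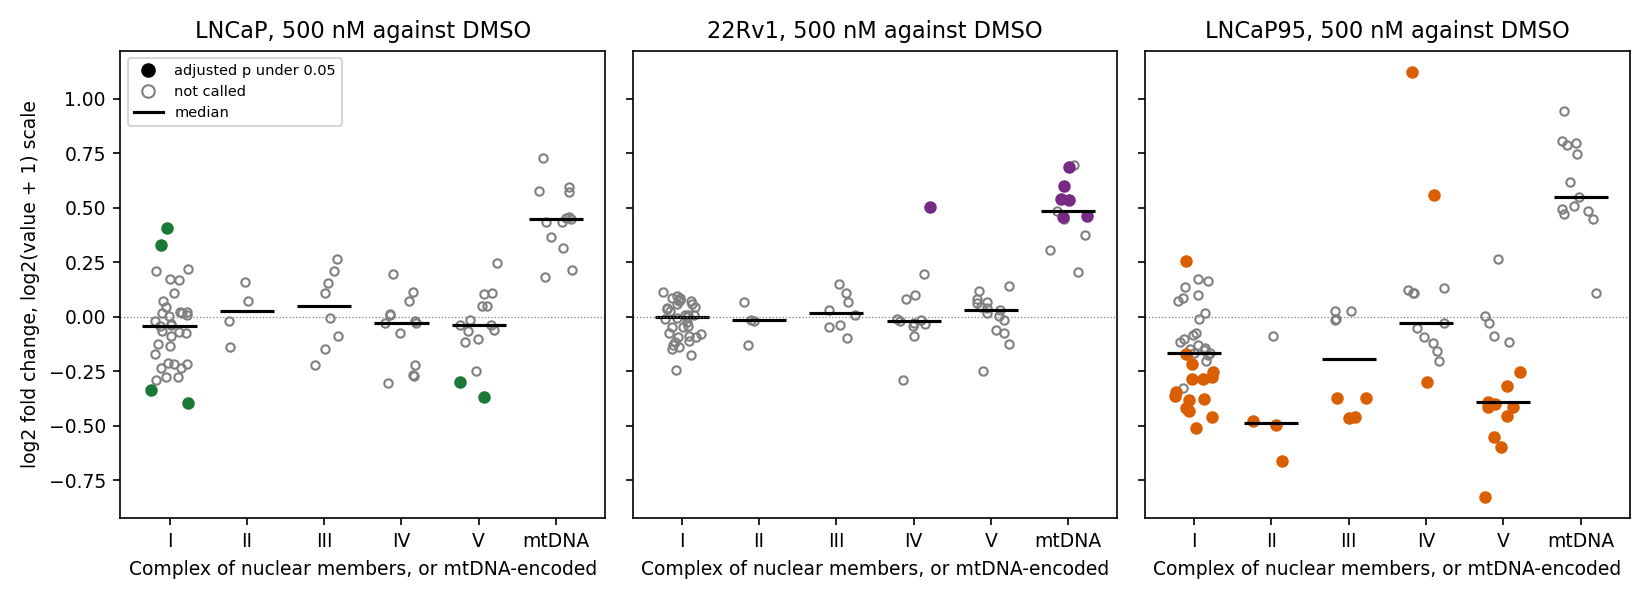
log2 fold change at 500 nM against DMSO (limma, log2(value + 1) scale) of each subunit gene in the 3 lines, by complex for nuclear members and as one column for the mitochondrially encoded genes; filled points have an adjusted p under 0.05 and lines are medians. Complexes II and V of LNCaP95 have the lowest medians (-0.49 and -0.39), and the called mitochondrial genes are in 22Rv1.

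Promoter sequence was examined because 33 of 78 nuclear members were called lower in LNCaP95 at 500 nM. RefSeq promoters (GRCh38.p14, from 250 bases before to 50 bases after each gene's start) were found for 64 of 78 nuclear members, 28 of them lower in LNCaP95 at 500 nM. TGCGCA, a core of the NRF1 site that reads the same on both strands, occurred in 19 of 64 member promoters (29.7%) and in 8.42% of all 27305 promoters. CCGGAAG, an ETS core that was searched on both strands and does not overlap the NRF1 letters, was in 19 of 64 (29.7%) against 10.7%.

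Members that were lower in LNCaP95 and the others both carried these letters. The NRF1 core was in 10 of 28 promoters of lower members and in 9 of 36 of the others, and the ETS core in 7 and 12. A match is a description of the letters in this window only. The 250 bases before the start are shown for SDHB, which had the largest fall among members with a matched promoter, for SDHD, which also fell and holds both cores, and for COX7A2L, which rose and holds neither there. These were picked after their values were seen; capitals mark the NRF1 core and the ETS core on either strand.
SDHB, chr1:17054033-17054282, minus strand: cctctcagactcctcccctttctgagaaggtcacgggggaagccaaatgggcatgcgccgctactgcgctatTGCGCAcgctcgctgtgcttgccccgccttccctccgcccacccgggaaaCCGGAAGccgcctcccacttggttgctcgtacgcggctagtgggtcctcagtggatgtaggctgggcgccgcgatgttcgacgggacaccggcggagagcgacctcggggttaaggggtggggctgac
SDHD, chr11:112086623-112086872, plus strand: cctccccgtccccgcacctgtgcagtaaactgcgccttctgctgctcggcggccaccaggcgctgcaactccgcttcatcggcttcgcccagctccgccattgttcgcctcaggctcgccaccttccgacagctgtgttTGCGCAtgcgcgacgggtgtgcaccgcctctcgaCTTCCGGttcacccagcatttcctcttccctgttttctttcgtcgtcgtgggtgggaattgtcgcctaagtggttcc
COX7A2L, chr2:42361218-42361467, minus strand: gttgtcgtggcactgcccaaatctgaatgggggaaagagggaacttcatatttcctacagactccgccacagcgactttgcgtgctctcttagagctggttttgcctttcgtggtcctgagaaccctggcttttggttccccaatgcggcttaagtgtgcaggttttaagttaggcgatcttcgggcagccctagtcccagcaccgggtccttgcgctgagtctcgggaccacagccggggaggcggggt

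The mitochondrial genes of LNCaP95 had a higher mean at each dose, but none was called. Their median log2 fold change was 0.55 at 500 nM and 0.70 at 100 nM, and all 13 estimates were above 0. At 500 nM limma, edgeR and DESeq2 each called 0 of 13, and 0 had an unadjusted p under 0.05; at 100 nM limma and DESeq2 called 0 and edgeR 2, and 3 had an unadjusted p under 0.05. With the replicate number as a block, limma called 6 of 13 higher at 500 nM and 12 of 13 at 100 nM. Without the block 28.2% of all genes were called higher at each dose. The share with the block is not given, so these counts are not set against it.

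MT-CYB, the cytochrome b of complex III, illustrates the spread, and it had the largest estimate of the 13 genes at each dose. In LNCaP95 DMSO replicate 2 it held 6.65% of the set's counts, against 9.65% and 10.8% in replicates 1 and 3. Its LNCaP95 DMSO libraries had 55797, 28014 and 34436 normalised counts, the 100 nM libraries 72896, 150551 and 45803, and the 500 nM libraries 74536, 137042 and 37464. Replicate 3 at either dose lay below DMSO replicate 1, so the groups overlapped. Within each replicate number both treated libraries were above the DMSO library. The log2 fold change of 0.94 (SE 0.45) at 500 nM did not pass (limma adjusted p 0.0937), and it passed with the replicate number as a block (SE 0.30, limma adjusted p 0.0121). At 100 nM it was 1.07 (SE 0.45), with a limma adjusted p of 0.0592, and of 0.00545 with the block. Without 500 nM replicate 2 the median over the 13 genes was 0.14, and without 100 nM replicate 2 it was 0.30. Leaving out 500 nM replicate 3 gave a median of 0.98 and 6 called genes, and leaving out 100 nM replicate 3 gave 1.11 and 6. With replicates 1 and 3 alone the medians were 0.05 at 500 nM and 0.18 at 100 nM, and 0 genes were called.

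The nuclear counts of LNCaP95 moved little without that library. With replicates 1 and 3 alone 33 nuclear members fell and 2 rose at 500 nM, and 32 fell and 3 rose at 100 nM. The share of all genes called with those replicates alone is not given. The difference between the set medians, mitochondrial minus nuclear, was 0.71 at 500 nM and 0.88 at 100 nM, and 0.25 and 0.37 with replicates 1 and 3 alone.

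**Figure D4:**
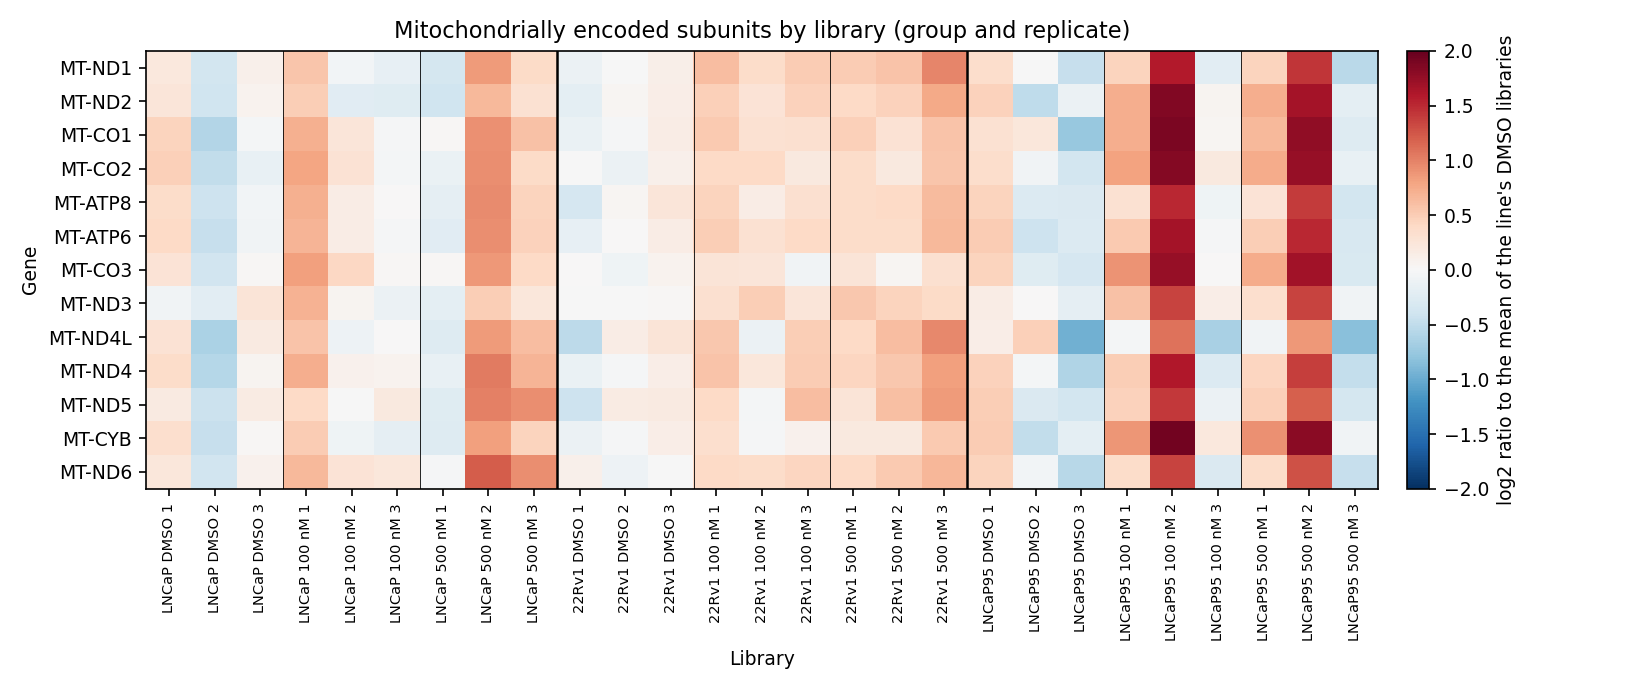
log2 ratio of each mitochondrially encoded gene's normalised count to the mean of the same line's DMSO libraries, for 13 genes (rows, in genome order) and 27 libraries (columns, thick lines between cell lines). LNCaP95 replicate 2 stands out at both doses across the genes, the treated 22Rv1 libraries are mostly above 0, and LNCaP 500 nM replicate 1 is mostly below 0.

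In 22Rv1 calls fell mainly on the mitochondrial set. At 500 nM 6 of 13 mitochondrial genes rose (46.2%, where 3.47% of all genes tested rose), and 12 of 13 had DMSO and treated libraries that did not overlap, as did 31.2% of all genes. At 100 nM 3 rose (23.1% against 3.19%), and 8 of 13 did not overlap, against 24.7%. Only 1 of 77 nuclear members tested was called at each dose, COX7A2L, and none was lower, where 3.5% of all genes fell at 500 nM (6.97% called in all) and 3.36% at 100 nM (6.55% called in all). The mitochondrial median was 0.49 at 500 nM and 0.35 at 100 nM, and the nuclear medians were -0.00 and 0.05.

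The 6 genes that rose at 500 nM in 22Rv1 were MT-ND1, MT-ND2, MT-ND3, MT-ND4, MT-ND6 and MT-ATP6. MT-ND1, a core membrane subunit of complex I, had 29442, 32013 and 34841 normalised counts with DMSO, 49097, 41310 and 45752 at 100 nM, and 45703, 47806 and 62900 at 500 nM. All its treated libraries lay above the DMSO libraries, and it rose by 0.69 (SE 0.13, limma adjusted p 0.00968) at 500 nM and by 0.50 (SE 0.13, adjusted p 0.0434) at 100 nM. MT-ND6 had 8727, 7543 and 8024 with DMSO and 10665, 11646 and 12901 at 500 nM, without overlap, and rose by 0.53 (SE 0.10, adjusted p 0.00685). At 100 nM MT-ND6 and MT-ND3 rose as well, by 0.40 and 0.35 (adjusted p 0.031 and 0.045).

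Of complex IV, whose catalytic core is MT-CO1, MT-CO2 and MT-CO3, no member encoded in mitochondria passed in 22Rv1. The 500 nM log2 fold changes were 0.45 for MT-CO1 (limma adjusted p 0.0555), 0.37 for MT-CO2 (0.0843) and 0.21 for MT-CO3 (0.343). MT-CO3 had 62003, 57777 and 64341 normalised counts with DMSO and 73070, 63062 and 76780 at 500 nM, so its groups overlapped. For MT-CYB the log2 fold change was 0.31 (adjusted p 0.179), for MT-ND5 0.60 (0.10), for MT-ND4L 0.70 (0.0788) and for MT-ATP8 0.49 (0.0603). MT-ND4L overlaps MT-ND4, and MT-ATP8 overlaps MT-ATP6, so reads of these pairs cannot be fully separated.

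The number of mitochondrial calls in 22Rv1 moved with the libraries and the fit. The 500 nM count was 3 when DMSO replicate 1 or 500 nM replicate 3 was left out, 2 when replicate 2 of either group was, 4 when 500 nM replicate 1 was and 7 when DMSO replicate 3 was. The 100 nM count was 0 when DMSO replicate 2 or 3 or 100 nM replicate 1 was left out, 1 when DMSO replicate 1 was, 2 when 100 nM replicate 3 was and 6 when 100 nM replicate 2 was. With all 27 libraries in 1 fit, where the spread of LNCaP and LNCaP95 enters, it was 0 at each dose, and DESeq2 called 11 and 8. Shares of all genes called are not given for these fits.

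COX7A2L was the nuclear member called in 22Rv1. It had 793, 709 and 754 normalised counts with DMSO, 941, 1078 and 920 at 100 nM and 1102, 1057 and 1035 at 500 nM, each treated library above each DMSO library. It rose by 0.50 (SE 0.10, limma adjusted p 0.0104) at 500 nM and by 0.38 (SE 0.10, adjusted p 0.0408) at 100 nM. The 500 nM call was lost without DMSO replicate 2 and without 500 nM replicate 1, and the estimate lay between 0.46 and 0.54 over the fits that left out 1 library. The 100 nM call was lost in 4 of 6 such fits (without DMSO replicate 2 or 3, or 100 nM replicate 1 or 2), with estimates of 0.31 to 0.42.

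In LNCaP few nuclear members were called at 500 nM and more at 100 nM. At 500 nM 2 of 78 rose and 4 fell, where 11% of all genes rose and 9.83% fell (20.8% called in all), and the median was -0.03. Groups did not overlap for 34 of 78, against 40.8% of all genes. At 100 nM 16 rose (20.5%, against 13.7% of all genes) and 2 fell (2.56%, against 11.6%; 25.3% of all genes were called in all), with a median of 0.12. Groups did not overlap for 32 of 78, against 36.8%. Shares of all genes called are not given for the other fits that follow in this paragraph. With libraries scaled to equal totals the 500 nM split was 7 higher and 2 lower, and the 100 nM split 28 higher and 2 lower. With the replicate number as a block, 5 rose and 9 fell at 500 nM. Leaving out DMSO replicate 1 raised the 500 nM count from 6 to 13. It was 3 or 2 when DMSO replicate 2 or 3 was left out, and 1, 1 or 2 when 500 nM replicate 1, 2 or 3 was. The 100 nM count went from 18 to 9 when DMSO replicate 2 was dropped, and to 10 when DMSO replicate 3 or 100 nM replicate 2 was; dropping DMSO replicate 1 gave 27.

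NDUFB4, an accessory subunit in the membrane arm of complex I, had the largest rise in LNCaP. It had 7445, 7327 and 7514 normalised counts with DMSO, 10467, 12764 and 11027 at 100 nM, and 8920, 10568 and 10152 at 500 nM, with no overlap with DMSO. It rose by 0.62 (SE 0.10, limma adjusted p 0.00156) at 100 nM and by 0.41 (SE 0.10, adjusted p 0.0138) at 500 nM. NDUFV2, an iron-sulphur core subunit, rose by 0.42 and 0.33 (adjusted p 0.00477 and 0.0172). At 100 nM ATP5G1 rose by 0.51 (adjusted p 0.00718) and UQCR10, a small subunit of complex III, by 0.46 (adjusted p 0.00815).

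Those that fell in LNCaP at 500 nM were NDUFA11, ATP5G2, NDUFS4 and ATP5O. NDUFA11, a membrane subunit of complex I, had 852, 922 and 918 normalised counts with DMSO and 694, 668 and 683 at 500 nM, without overlap, and fell by 0.40 (SE 0.10, limma adjusted p 0.0208). ATP5G2 fell by 0.37 (SE 0.09, adjusted p 0.019), and NDUFS4, an accessory subunit of the matrix arm, fell by 0.34 (SE 0.10, adjusted p 0.0294). The calls of NDUFA11 and NDUFS4 were each lost in 5 of 6 fits that left out 1 library, all but the one without DMSO replicate 1, and those of NDUFB4, NDUFV2 and ATP5G2 in 3 of 6. The same direction was kept throughout.

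No mitochondrial gene was called in LNCaP at either dose by limma, edgeR or DESeq2 (1 of 13 had an unadjusted p under 0.05 at 500 nM and 0 at 100 nM). The median was 0.45 at 500 nM and 0.31 at 100 nM. MT-ND6 had the largest difference, with 6469, 4248 and 5865 normalised counts with DMSO and 5443, 12835 and 10474 at 500 nM; 500 nM replicate 1 lay below DMSO replicates 1 and 3, and the log2 fold change of 0.73 (SE 0.27) had a limma adjusted p of 0.0771. With replicates 2 and 3 alone, 12 of 13 genes were called higher at 500 nM with a median of 0.96. That subset leaves out the DMSO library with the highest mitochondrial share (2.86%) and the 500 nM library with the lowest (2.19%). Its count therefore shows the dependence on replicate 1 and is no separate evidence of a rise. Without DMSO replicate 1, and without 500 nM replicate 1, 2 were called.

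The effect of 500 nM differed between the lines for some nuclear members. The LNCaP95 effect minus the LNCaP effect passed for 17 of 77 nuclear members, 14 of them negative and 3 positive, where 38.9% of all genes passed (19.1% negative, 19.8% positive). ATP5G3 had a difference of -0.93 (SE 0.16, limma adjusted p 6.89e-05), NDUFA9 of -0.73 (SE 0.12, adjusted p 3.89e-05) and COX7A2L of 0.86 (SE 0.12, adjusted p 6.58e-06). Scaled to equal totals, 28 were negative and 3 positive, and the share of all genes called under that scaling is not given. Against 22Rv1, the LNCaP95 effect differed for 12 of 77, 11 of them negative, where 25.4% of all genes passed (12.4% negative, 13% positive). These 12 included ATP5G3 (-0.97), ATP5B (-0.67) and SDHB (-0.64). The count was 19 without 22Rv1 DMSO replicate 1, where the share of all genes called is not given either.

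Between 22Rv1 and LNCaP the effect differed for 2 of 77 nuclear members (14.3% of all genes, 6.79% positive and 7.52% negative), COX7A2L (0.81, SE 0.12, limma adjusted p 7.15e-05) and NDUFB4 (-0.54, SE 0.15, adjusted p 0.019). With equal totals 1 was positive and 8 negative, and the share of all genes called under that scaling is not given. For mitochondrial genes none of these 3 differences between lines was called by limma, edgeR or DESeq2, and 0 of 13 had an unadjusted p under 0.05.

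COX7A2L thus had opposite estimates in LNCaP and the other lines. In LNCaP it had 1875, 1868 and 2027 normalised counts with DMSO and 1598, 1586 and 1487 at 500 nM, a log2 fold change of -0.30 that did not pass (limma adjusted p 0.0504). Its groups did not overlap in any line at 500 nM.

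The nuclear members called in LNCaP95 and in LNCaP, whose comparisons share no library, were set side by side. Of the 33 members lower in LNCaP95 at 500 nM, 2 (6.06%) were among the 4 lower in LNCaP (50%), ATP5O and NDUFS4, where 42.3% of all nuclear members were lower in LNCaP95. At 100 nM NDUFS4 was 1 of the 33 lower in LNCaP95 (3.03%) and 1 of the 2 lower in LNCaP (50%). Its LNCaP call at 100 nM was lost in 5 of 6 fits that left out 1 library. Another 6 of those 33 (18.2%) were among the 16 higher in LNCaP (37.5%): ATP5G1, ATP5G3, COX6B1, NDUFA9, NDUFS5 and UQCRFS1. These shares lay near those of all nuclear members at 100 nM, 20.5% higher in LNCaP and 42.3% lower in LNCaP95. Of the 6, NDUFA9 rose by 0.38 in LNCaP (adjusted p 0.00485) and fell by 0.46 in LNCaP95 (adjusted p 0.000137) at 100 nM in limma.

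With DMSO alone the lines differed widely in single nuclear members. Between 22Rv1 and LNCaP 53 of 78 differed, 30 higher and 23 lower, where 74.8% of all genes passed (39.3% higher, 35.5% lower), and 55 did not overlap, against 74% of all genes. Between LNCaP95 and LNCaP 41 differed, 19 higher and 22 lower, against 66.5% (34% higher, 32.5% lower), and 49 did not overlap, against 69.1%; with equal totals the split was 35 higher and 18 lower. Between LNCaP95 and 22Rv1 52 differed, 20 higher and 32 lower, against 76.1% (35.4% higher, 40.8% lower), 49 did not overlap, against 78.1%, and with equal totals 26 higher and 27 lower. Equal totals moved the median of all genes from 0.01 to 0.21 in LNCaP95 against LNCaP. Shares of all genes called with equal totals are not given, so those splits are not set against them. The splits without equal totals count COX7B2 as lower in both comparisons with LNCaP and as higher in LNCaP95 against 22Rv1. With DMSO it passed the filter on low values only through its LNCaP libraries, so these differences are descriptions with no test. In LNCaP95 against 22Rv1 it was below the filter's minimum value in all libraries of both groups.

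NDUFB4 had 13026 ± 1089 normalised counts in LNCaP95, 7428 ± 94.6 in LNCaP and 3127 ± 131 in 22Rv1 (SD, n = 3), with the lines fully separated. ATP5S ran from 622 ± 56.0 in LNCaP to 135 ± 14.1 in LNCaP95 (SD, n = 3), a log2 difference of -2.20 (SE 0.11, limma adjusted p 6.42e-15). ATP5J2, the f subunit of the ATP synthase, had 7520, 5923 and 6338 in 22Rv1 and 2310, 2256 and 2043 in LNCaP, and was higher by 1.58 (SE 0.21, adjusted p 2.82e-07). In LNCaP95 the ATP5J2 libraries had 1748, 708 and 1773, where replicate 2 was far below replicates 1 and 3. NDUFB8, an accessory subunit of complex I, was higher in 22Rv1 than in LNCaP by 1.37 (SE 0.12, adjusted p 1.52e-10).

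**Figure D5:**
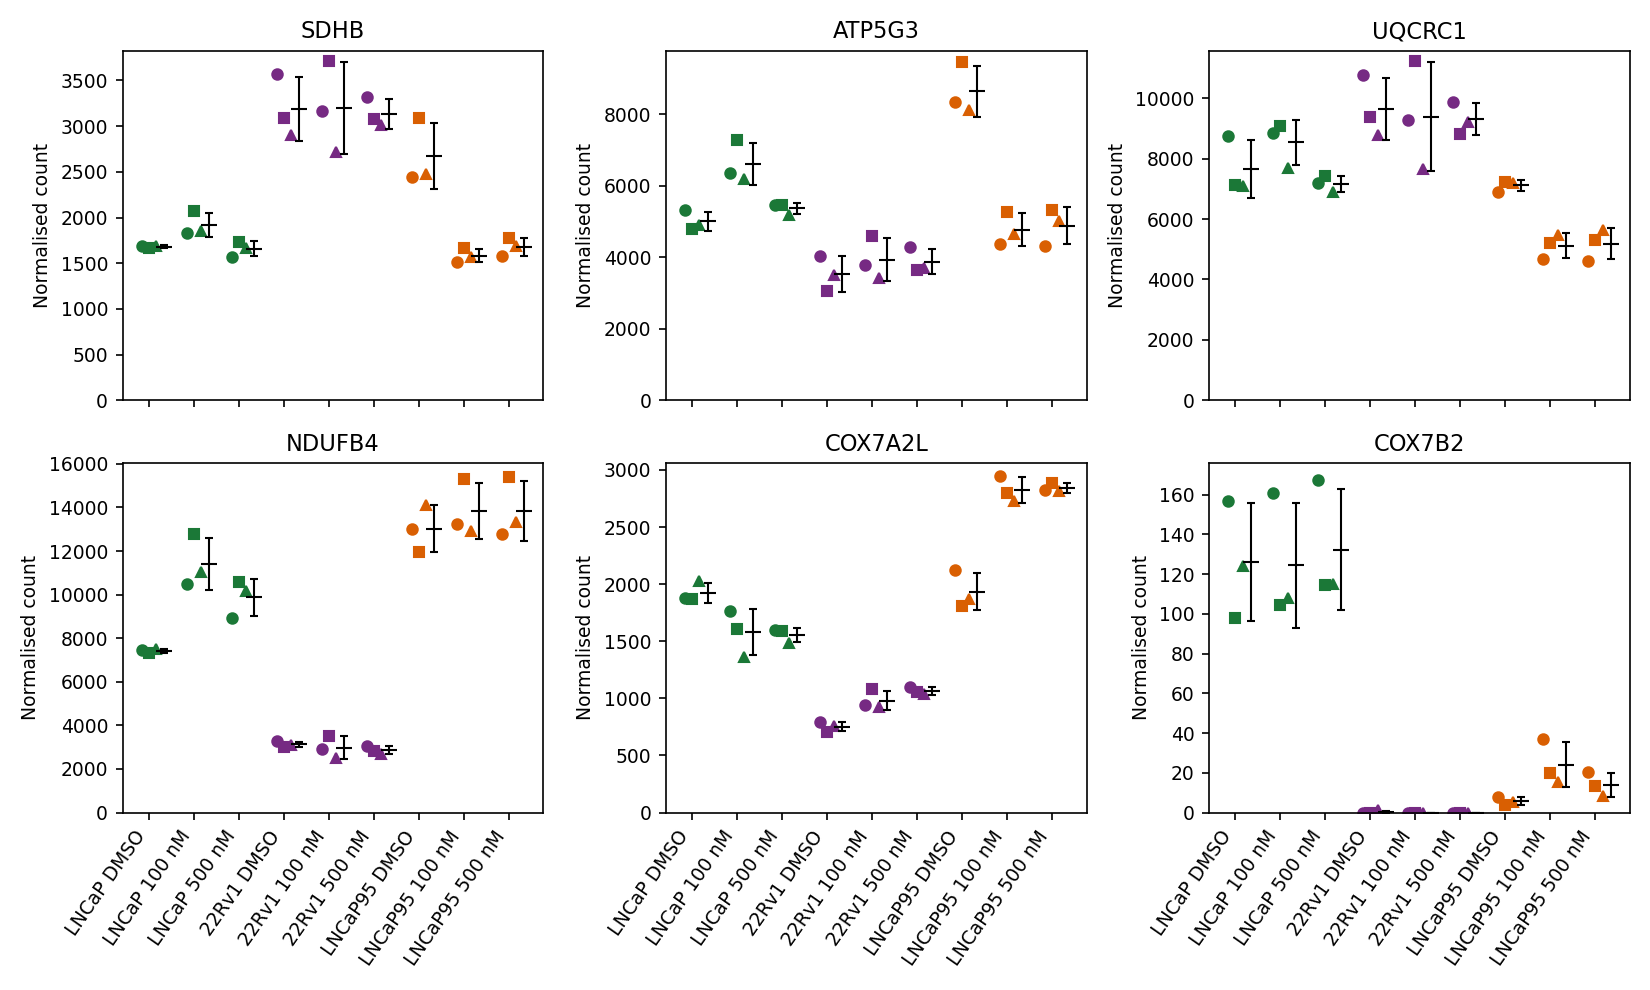
Normalised counts of 6 nuclear members in each library, by group (points, with circles, squares and triangles for replicates 1, 2 and 3; bars, mean ± SD, n = 3). SDHB, ATP5G3 and UQCRC1 are lower in treated LNCaP95, NDUFB4 is higher in treated LNCaP, and COX7B2 is at most 1.03 in 22Rv1.

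For mitochondrial genes few differences between the DMSO lines passed. In LNCaP95 against 22Rv1 limma called 1 of 13, MT-ND6, lower, with 6504, 4582 and 3261 normalised counts in LNCaP95 and 8727, 7543 and 8024 in 22Rv1 (log2 difference -0.81, SE 0.36, adjusted p 0.0431); edgeR and DESeq2 called 0. Limma, edgeR and DESeq2 called 0 of 13 between 22Rv1 and LNCaP and between LNCaP95 and LNCaP, and 0 had an unadjusted p under 0.05. Limma called 76.1% of all genes in LNCaP95 against 22Rv1, 74.8% in 22Rv1 against LNCaP and 66.5% in LNCaP95 against LNCaP. The median SE was 0.38 for mitochondrial and 0.12 for nuclear members. Uncalled estimates reached 0.74 in 22Rv1 against LNCaP and -0.82 in LNCaP95 against 22Rv1, so few calls do not show like levels. Per kilobase of gene length (GENCODE v29), MT-CO3 had the highest mean level in LNCaP with DMSO, 86001 ± 19164 normalised counts, and MT-ND6 the lowest, 10528 ± 2187 (SD, n = 3). MT-CO1 stood at 71914 ± 25243 and MT-ND5 at 11109 ± 2488, so neither end of that order separates from its neighbour beyond the spread.

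Of the tissue isoforms COX4I2, COX6A2, COX6B2, COX7A1, COX7B2 and COX8C, COX7B2 alone passed the filter on low values. COX7B2, a testis isoform of a complex IV subunit and the member nearest to the filter among those kept, reached 10 in 14 libraries. It had 157, 97.7 and 124 normalised counts in LNCaP with DMSO and 0, 0 and 1.03 in 22Rv1, the last being 1 read. In LNCaP95 it had 7.92, 3.91 and 5.31 with DMSO, 36.8, 20.1 and 15.4 at 100 nM and 20.3, 13.4 and 8.32 at 500 nM. It entered the LNCaP95 fit through its treated libraries, since no DMSO library reached 10, so its rise is given as a description with no test. The 100 nM libraries lay above all DMSO libraries, as did those at 500 nM. Just outside the filter were ATP5J2-PTCD1 (highest value 7.24), ATP5L2 (6.40), COX7A1 (5.27), COX8C (4.62), COX6B2 (1.19), COX6A2 (1.03) and COX4I2, listed at 0 in all libraries.

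Of the common partners of these isoforms, COX7B was called in LNCaP95 at 500 nM and COX6B1 at 100 nM. In LNCaP95 at 500 nM COX4I1, COX6A1, COX6B1, COX7A2, COX8A and NDUFA4 were not called, with log2 fold changes of -0.12, 0.13, -0.20, 0.11, -0.03 and 0.11. COX7B fell by 0.30 at 500 nM (SE 0.12, limma adjusted p 0.0497), and COX6B1 fell by 0.25 at 100 nM (SE 0.09, adjusted p 0.037), where COX7B was not called (adjusted p 0.0509). NDUFA4L2, a hypoxia-linked relative of NDUFA4 that lies outside the symbol rule, fell in LNCaP by 2.81 (SE 0.22, adjusted p 2e-05) and rose in LNCaP95 by 2.16 (SE 0.21, adjusted p 2.94e-06) at 500 nM. Its mean was 212 in LNCaP with DMSO and 29.4 at 500 nM, and 17.6 and 81.9 in LNCaP95.

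Genes that build, import or express the chain were read from 6 lists, chosen with earlier results known. In LNCaP95 at 500 nM 12 of 42 assembly factors fell and 3 rose (median -0.11), where 24.1% of all genes fell and 28.2% rose (median 0.03). There BCS1L, which inserts the Rieske protein into complex III, fell by 0.66 (SE 0.10, limma adjusted p 9.64e-05), and SURF1, a complex IV assembly factor, rose by 0.51 (SE 0.08, adjusted p 0.000131). Of the outer membrane, import and citrate synthase list 15 of 20 fell and 0 rose (median -0.37), among them TOMM40, the import pore, by 0.76 and VDAC2, an outer membrane channel, by 0.61. Of the electron carriers and related proteins 8 of 12 fell and 2 rose (median -0.30), with ETFB, a subunit of the electron transfer flavoprotein, lower by 0.80.

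Genes that copy, transcribe and process mitochondrial DNA and RNA, and nuclear regulators, were counted in LNCaP95 at 500 nM against the same 24.1% lower and 28.2% higher of all genes. Of 18 genes for DNA copying and transcription 8 fell and 1 rose (median -0.25), with C10orf2, the Twinkle helicase, lower by 0.78 and the nuclease MGME1 by 1.03. Of 18 RNA processing and decay genes 13 fell and 1 rose (median -0.41), with TBRG4 and PNPT1, a mitochondrial RNA exonuclease, lower by 0.69 and 0.67. Of 15 nuclear regulators 6 fell and 1 rose (median -0.28): NRF1 rose by 0.98 (SE 0.12, limma adjusted p 1.57e-05), and PPARGC1B, a coactivator, fell by 1.46 (SE 0.19, adjusted p 3.81e-05).

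In LNCaP at 500 nM the same lists held calls in both directions, where 11% of all genes rose and 9.83% fell. Counts of higher and lower genes were 4 and 2 of 42 assembly factors, 1 and 4 of 20 import genes, 2 and 2 of 12 carriers, 1 and 2 of 18 copying and transcription genes, 3 and 1 of 18 RNA processing genes, and 0 and 3 of 14 regulators. NRF1 fell by 0.73 (SE 0.13, limma adjusted p 0.00273) and MYC, a growth regulator, by 0.58 (SE 0.09, adjusted p 0.00144). NDUFAF6 and TMEM70, assembly factors for complexes I and V, rose by 0.87 and 0.45, and TFB1M, a mitochondrial rRNA methyltransferase, fell by 0.49. TRMT10C, a part of mitochondrial RNase P, rose by 0.32, LRPPRC, which stabilises mitochondrial messenger RNA, fell by 0.26, and PHB2 and TIMM44 fell by 0.41 and 0.40. MTERFD2 and HIGD1A rose by 0.33 and 0.32.

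In 22Rv1 at 500 nM the lists were read against 3.47% of all genes higher and 3.5% lower. Counts of higher and lower genes were 0 and 0 of 42 assembly factors, 2 and 0 of 20 import genes, 1 and 0 of 12 carriers, 1 and 0 of 18 copying and transcription genes, 0 and 0 of 18 RNA processing genes, and 2 and 1 of 15 regulators. MTERFD2 rose by 0.42 (SE 0.11, limma adjusted p 0.0403), HIF1A, the hypoxia factor, by 0.70 (SE 0.13, adjusted p 0.00942), and MYC fell by 0.46 (SE 0.10, adjusted p 0.0198). CHCHD3, HSPA9 and HIGD1A rose by 0.44, 0.37 and 0.32. TFAM, which packages mitochondrial DNA, had a log2 fold change of -0.29 that did not pass (adjusted p 0.0919). The smallest adjusted p was 0.168 among assembly factors (PET117) and 0.194 among RNA processing genes (PDE12), and 1 gene of each list had an unadjusted p under 0.05.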

How the data were processed

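RNA-seq libraries were made from poly(A) RNA by a strand-keeping kit, and 75 bases were read from each end, per the labels' protocols. Reads were aligned to hg19 with STAR 2.3.1z4 and counted with featureCounts, and DESeq was used, per the submitters' processing notes; for the strand setting of counting, the sources used here give nothing. The deposited values are normalised counts (a signal, gene counts divided by a size factor per library, by the authors). Whole reads were recovered for 100% of values (tolerance 1e-06).

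Values were tested as log2(value + 1) with limma 3.58.1 (R 4.3.3) within each line, for differences between lines and between DMSO groups. Benjamini-Hochberg adjustment was at 0.05. Within a line, genes at 10 or more in at least 3 of its libraries were kept. Differences of effects between lines needed this in each line, and comparisons of DMSO groups needed it among the DMSO libraries. Both of these kinds took their spread from all 27 libraries in 1 fit. Alternatives were a pseudocount of 10, no filter, equal totals, edgeR 4.0.16 and DESeq2 1.42.0 on recovered reads, a replicate block, single libraries left out, and all 27 libraries in 1 fit. Named genes were all mitochondrial genes, called members with the largest rises and falls (up to 3 each way, mean at least 50 in the higher group), the smallest adjusted p in each complex, tissue isoforms and their partners, members at the edge of the filter, and up to 2 genes of each further list with the smallest p per line. Further subunits (SDHC, SDHD, ATP5C1, NDUFS1, NDUFS3, UQCRFS1, NDUFA7) were chosen after their values were seen. The script was tested on simulated data. Same-numbered LNCaP95 libraries deviated together in every pair of groups (correlations 0.128 to 0.470), so the block is given beside its results. Members and lists were chosen with earlier results of these data known. Nuclear copies of mitochondrial genes may share reads with them. Promoters are from RefSeq.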

Additional observations from a re-analysis of the deposited data

Results flagged for a closer look

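The effect of 500 nM on nuclear members differed between lines by the interaction test (limma, adjusted p under 0.05). In each comparison the share of nuclear members called was below that of all genes. Between LNCaP95 and LNCaP the effect differed for 17 members (22.1% of those tested, against 38.9% of all genes). Among them were ATP5S (log2 difference of the effect 0.96), COX7A2L (0.86), COX7C (0.39), ATP5G3 (-0.93), NDUFA9 (-0.73) and SDHA (-0.66). The COX7C call was lost in 10 of 12 fits that left out 1 library.

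Between 22Rv1 and LNCaP the effect differed for 2 members (2.6%, against 14.3% of all genes), COX7A2L (0.81) and NDUFB4 (-0.54). The NDUFB4 call was lost without LNCaP 500 nM replicate 2 and without 22Rv1 500 nM replicate 3. Between LNCaP95 and 22Rv1 it differed for 12 members (15.6%, against 25.4% of all genes), among them ATP5S (0.93), ATP5G3 (-0.97), ATP5B (-0.67) and SDHB (-0.64).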

How the results depend on the processing

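Counts of called members are given first. The share of all genes called in each of these fits is not given, so the counts show only how far each one moved. For nuclear members, LNCaP at 500 nM (6) gave 10 with equal totals of nuclear-encoded genes, 11 with DESeq2, 14 with the replicate block and 12 with replicates 2 and 3 alone, and 1 to 13 without 1 library. LNCaP at 100 nM (18) gave 30 with either kind of equal totals and 9 to 27 without 1 library. In 22Rv1 at 100 nM the 1 call became 0 with either kind of equal totals and with the replicate block. At each dose it was 0 to 1 without 1 library. The difference between LNCaP95 and LNCaP (17) gave 31 and 30 with the 2 kinds of equal totals, that between 22Rv1 and LNCaP (2) gave 9 and 10, and 1 to 3 without 1 library, and that between LNCaP95 and 22Rv1 (12) gave 8 to 19 without 1 library.

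For mitochondrial members, LNCaP at 500 nM (0) gave 12 with replicates 2 and 3 alone and 0 to 2 without 1 library. Replicates 2 and 3 alone leave out the DMSO library with the highest mitochondrial share and the 500 nM library with the lowest. In 22Rv1 at 500 nM (6) the count was 3 without the filter, 3 with equal totals of nuclear-encoded genes, 11 with DESeq2 and 0 with all 27 libraries in 1 fit, and 2 to 7 without 1 library. In 22Rv1 at 100 nM (3) it was 0 without the filter, 0 with equal totals, 1 with equal totals of nuclear-encoded genes, 8 with DESeq2, 0 with all 27 libraries, and 0 to 6 without 1 library. In LNCaP95 at 500 nM (0) it was 6 with the replicate block and 1 with all 27 libraries. At 100 nM (0) it was 2 with edgeR, 12 with the replicate block and 5 with all 27 libraries, and at each dose 0 to 6 without 1 library. With DMSO, 22Rv1 against LNCaP (0) gave 1 with equal totals and 0 to 1 without 1 library. LNCaP95 against 22Rv1 (1) gave 2 with a pseudocount of 10 or the block, 0 without the filter, with either kind of equal totals, edgeR or DESeq2, and 0 to 3 without 1 library.

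Leaving mitochondrial counts out of the total gave nuclear shares of 1.77% (LNCaP DMSO), 1.83% (LNCaP 500 nM), 1.85% (22Rv1 500 nM) and 1.67% (LNCaP95 100 nM). The LNCaP 100 nM difference between set medians ran from -0.01 to 0.36 without 1 library, and was -0.0104 without DMSO replicate 2 and -0.0062 without 100 nM replicate 1.

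Some estimates of mitochondrial genes, all above 0 with every library in, turned negative when 1 library was left out. In LNCaP at 500 nM MT-ND2 ran from -0.0209 to 0.5056. In LNCaP at 100 nM MT-ND1 ran from -0.0883 to 0.2726, MT-ND2 from -0.2091 to 0.1685, MT-ND3 from -0.0178 to 0.3897, MT-ND4L from -0.0768 to 0.3816 and MT-CYB from -0.0995 to 0.2973. In LNCaP95 at 500 nM MT-ND1 ran from -0.0092 to 0.9757, MT-ATP8 from -0.0104 to 0.8751 and MT-ND4L from -0.3289 to 0.5184, and at 100 nM MT-ND4L from -0.2211 to 0.6408. With replicates 2 and 3 alone LNCaP at 100 nM gave -0.0729 for MT-ND2 and -0.0478 for MT-ND3. With replicates 1 and 3 alone LNCaP95 at 500 nM gave -0.1237 for MT-ATP8, -0.0282 for MT-ATP6, -0.0286 for MT-ND4L and -0.0032 for MT-ND5. The cause was not tested. Of 1988 alternatives for single genes, 1770 kept direction and side of the threshold. A call was lost in 126 and gained in 71, and 21 changed direction. Genes not called that stayed so count as kept, so the 1770 does not show that calls were stable. Same-numbered LNCaP libraries correlated at 0.131 to 0.316 between DMSO and 500 nM and at 0.263 to 0.389 between 100 and 500 nM. Between DMSO and 100 nM they correlated at -0.003 to 0.0823. Pairing by number was therefore not shown for every pair of LNCaP groups, though the first pairs named would meet the bar used for LNCaP95. In 22Rv1 the lowest was -0.291. With 3 libraries a group, and mitochondrial counts that varied widely between replicates of LNCaP and LNCaP95, small differences were not detectable.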

Other observations

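Shares of single genes within the mitochondrial set are given by group. In LNCaP95 MT-CYB took 9.05% ± 2.16 of the set's counts with DMSO, 10.5% ± 0.134 at 100 nM and 10.7% ± 0.451 at 500 nM (SD, n = 3). In LNCaP MT-ND6 took 1.16% with DMSO and 1.39% at 500 nM. In 22Rv1 MT-CYB took 9.34% with DMSO, 8.10% at 100 nM and 8.41% at 500 nM. These shares were not tested.

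LNCaP95 DMSO replicate 2 stood apart in several members. Its MT-ND4L count was 33.5% of its MT-ND4 count, it had 14780 counts of MT-ND2 and 28014 of MT-CYB, and NDUFB3 had 2574 where replicates 1 and 3 had 1657 and 1563.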
